A study of Citrus sinensis with 2 samples.

Results

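The names described here are those of miRNAs first recorded in citrus or, for miR3627, in grapevine, together with 2 names whose listed sequences are near-identical to that of a citrus miRNA. The rule took miR3627, the names from miR3946 to miR3954, and miR1171 and miR4351, which are tied to miR3948 directly or through each other. It found 12 of the 1215 known miRNAs in the count table. The small RNA came from fully expanded leaves of Citrus sinensis seedlings of the cultivar Xuegan, grown in sand. Mg-deficient seedlings received nutrient solution with 0 mM MgSO4, with sodium sulfate in its place, and Mg-sufficient seedlings received 1 mM MgSO4, in both cases for 16 weeks. Each treatment is represented by 1 library, made from a mixed sample of 5 plants. No difference below could thus be set against a spread between replicates, and every interval covers counting error only. The study also measured miRNAs by stem-loop qRT-PCR in biological replicates, with primers listed for miR3946 and miR4351. It reports that all but miR1222, miR7730 and miR5832 matched the sequencing. Those measurements are not part of the data used here.

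Plant miRNAs are short RNAs cut from hairpin precursors by Dicer-like enzymes. Bound to an Argonaute protein, they guide the cleavage or the translational block of mRNAs that pair with them almost completely. Most are 21 or 22 nt long and begin with U. In plants, 24-nt small RNAs are more often siRNAs that direct DNA methylation. Besides the miRNAs shared by nearly all land plants, such as miR156 or miR166, each lineage has younger ones, and the series from miR3946 to miR3954 was named in citrus. Among them, miR3954 is a 22-nt miRNA known in sweet orange to trigger the production of phased secondary siRNAs from a non-coding RNA and from NAC transcription factor transcripts. The name miR3627 belongs with miR4376, which in tomato cleaves the transcript of an autoinhibited calcium pump. Little is established on the function of the other names, although the study predicted target genes of miR3946 and measured their transcripts by qRT-PCR. Those transcripts went in both directions and are not part of the data used here.

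A sequence is listed for 11 of the 12 names in the supplement of the study, and the exception is miR3949. Whether these are database entries or tags read in the libraries is not stated, so that the lengths, first bases and overlaps below are those of the list. They are shown because the results turn on how alike some of them are. Capitals mark the seed, bases 2 to 8 from the 5′ end. The 6 names with listed sequences of 21 or 22 nt are:
miR3954: uUGGACAGagaaaucacgguca
miR3627: uCGCAGGGgagaugggacuaac
miR3951: uAGAUAAAgaugagagaaaaa
miR3950: uAUUUUCUgcaacaugauugu
miR3952: uGAAGGGCcuuucuagagcac
miR3953: uUGAGUUCugcaagccgucga

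The other 5 are 24 nt long, and the last 3 of them overlap each other:
miR3946: gUGUAGAGagagagagagagacac
miR3947: aAUGAUUUaguagacgacguuaca
miR3948: gGAGUGGGagugggaguagguugu
miR1171: aGUGUGGAgugggagugggagugg
miR4351: aUUGGGAGugugcagugggagugg

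The listed sequences of 21 and 22 nt all begin with U, and those of 24 nt begin with A or G. Over the 690 names with a listed sequence, 59.9% of those of 21 or 22 nt and 35.6% of those of 24 nt begin with U. No 2 of the 11 share a seed. The sequence of miR3946 is a run of 8 GA units with short ends, and 83.3% of its bases are purines, a share reached by 29 of the 690 listed sequences. That of miR3951 is 85.7% purine, which 18 of the 690 reach. The listed sequences of miR3948, miR1171 and miR4351 each hold GGGAGU 2 times. RefSeq annotates genes for 7 of the 12 names, 10 genes in all, on the sweet orange assembly DVS_A1.0. The 3 miR3627 genes follow each other with 0 annotated genes between them, and MIR3954 and MIR3953 are separated by 6 genes.

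The libraries held 20328011 clean reads for the Mg-deficient and 22218850 for the Mg-sufficient leaves, and 14.8% and 22.9% of these, in the same order, were counts of known miRNAs. Levels are given as normalized read-count, the count per 1000000 clean reads (RPM). The miRNAs as a whole were thus a smaller share of the Mg-deficient reads as the deposited tables are labelled, and its part in the log2 ratios below was not tested. With the read totals alone exchanged, the shares were 13.5% and 25.1% in the same order. The sequencing summary of the study, however, places the totals and the larger miRNA share under the opposite treatments. The labels of the deposited tables were followed here. The log2 fold changes printed by the study, such as -2.16 for miR3946, follow those labels too. Every direction below would turn if the libraries themselves were exchanged. The 12 names together had 124305 counts (6115 RPM) in the Mg-deficient library, against 165024 counts (7427 RPM) in the Mg-sufficient library. Of all counts of known miRNAs, they made up 4.14% in the Mg-deficient library (95% Wilson interval, 4.12 to 4.16%) and 3.24% in the Mg-sufficient library (3.22 to 3.25%). Their summed log2 ratio was -0.28, while that of all known miRNAs was -0.63. This sum is mostly miR3954, and without it the log2 ratio of the others was -0.50.

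**Figure D1:**
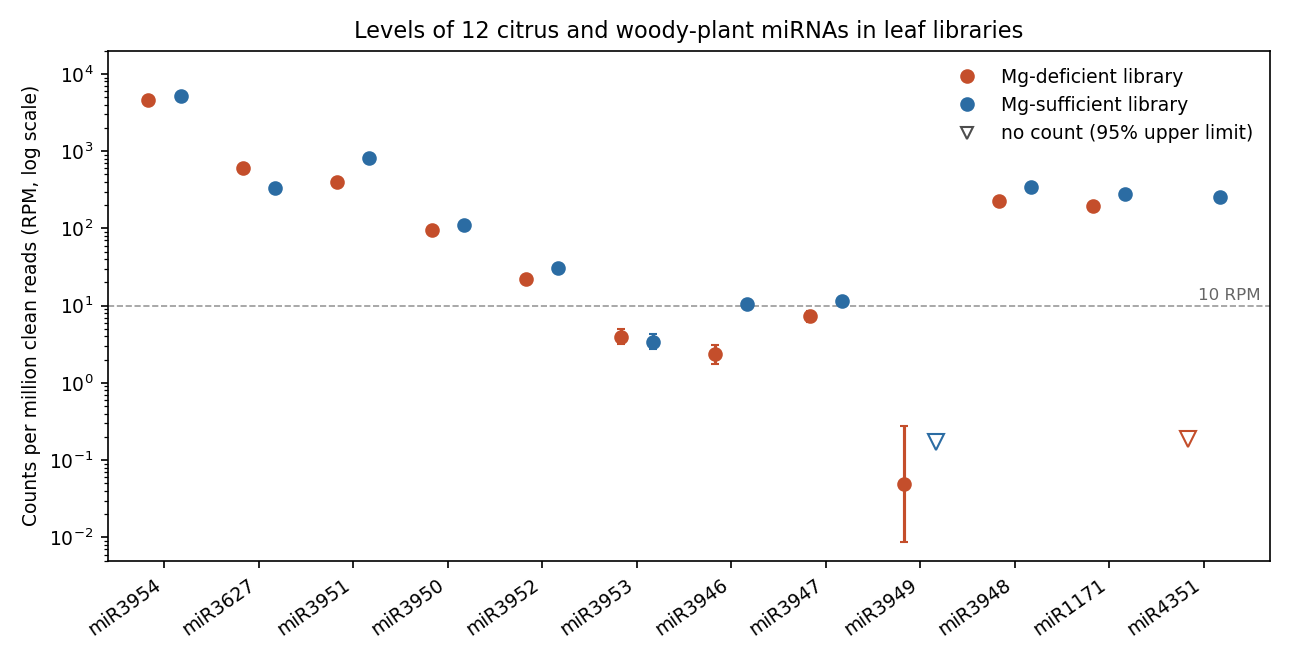
Normalized read-count (RPM, log scale) of each of the 12 names in the Mg-deficient library (red, left of each pair) and in the Mg-sufficient library (blue). Bars are 95% Wilson intervals of counting error, hidden by the point where short, and open triangles are the upper limits where no count was found. MiR3954 stands above the other names in both libraries, and miR4351 has 258 RPM in the Mg-sufficient library and no count in the Mg-deficient one.

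Names under 10 RPM in both libraries were left out by a filter on abundance. Calls were made where the log2 ratio, Mg-deficient over Mg-sufficient, lay beyond 1.5 and the one-sided Audic-Claverie p-value was below 0.01. That p-value sets the reads of 1 library against those of the other, and says nothing on replicate plants. Of the 12 names, 10 passed the filter, 7 of them with at least 10 RPM in both libraries. MiR3946, miR3947 and miR4351 passed through the Mg-sufficient library alone, and miR3953 and miR3949 did not pass. Of the 10, 2 were called, miR3946 and miR4351, both lower in the Mg-deficient library. Among all 324 names that passed, 53.7% were called, with 28.1% higher and 25.6% lower. Of the names with at least 10 RPM in both libraries, 12.8% were called, and 0 of the 7 among them described here. The median log2 ratio was -0.56 over the 10 and -0.30 over the 324, but the 3 names that passed through the Mg-sufficient library alone had to lie below 0. Over names with at least 10 RPM in both libraries, the log2 ratio was below 0 for 6 of the 7 and for 69.1% of the 149, with medians of -0.47 and -0.29 in the same order.

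**Figure D2:**
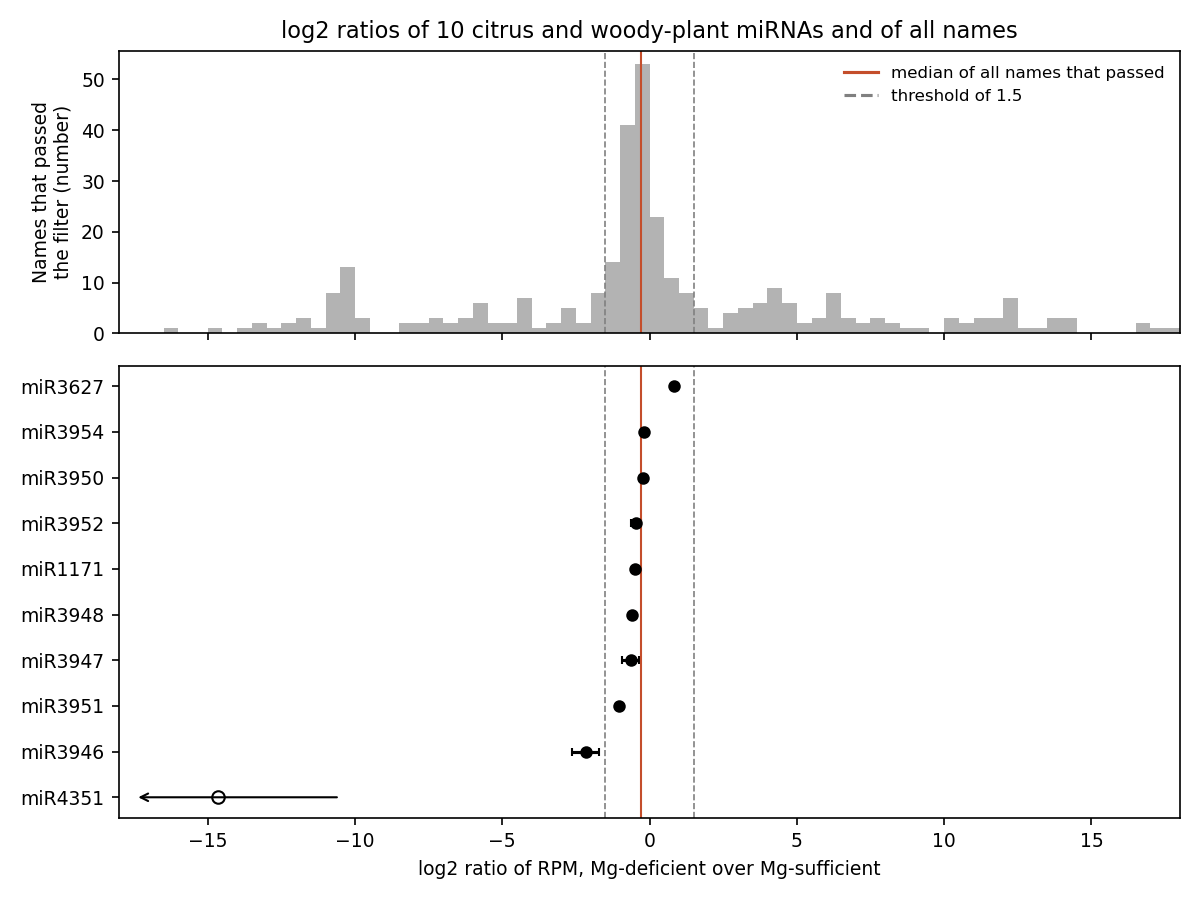
Upper panel, number of names by log2 ratio of RPM (Mg-deficient over Mg-sufficient) for the 324 names that passed the filter, with the median (red line) and the threshold of 1.5 in either direction (dashed lines). Lower panel, the log2 ratio of the 10 citrus and woody-plant names that passed, with the exact 95% interval of counting error. MiR3627 is the one name above 0, and miR4351, drawn as an open circle at the ratio that follows from setting a count of 0 to 0.01 RPM, has an interval with no lower end (arrow).

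MiR3954, the 22-nt trigger of phased siRNAs, was the most abundant of the 12. It had 92662 counts (4558 RPM; 95% interval, 4529 to 4588) in the Mg-deficient library and 116108 counts (5226 RPM; 5196 to 5256) in the Mg-sufficient library. It ranked 6 among the 1215 names in both libraries and accounted for 74.5% of the counts of the 12 names in the Mg-deficient and for 70.4% in the Mg-sufficient library. The log2 ratio of -0.20 (-0.21 to -0.18) lies beyond counting error and far within the threshold. With TMM normalization or DESeq2's size factors as the scale it was 0.14 or 0.17, so the data give no firm direction for miR3954.

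The apple name miR7122, shown because it differs from miR3954 by 1 base, is listed as follows:
miR7122: uUGGACAGagaaaucacggucg

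The difference is A22G, counted from the 5′ end of miR3954, and no other listed name has the seed of these. MiR7122 had 1224 counts (60.2 RPM) in the Mg-deficient library and 1476 counts (66.4 RPM) in the Mg-sufficient library. It took 1.30% (1.23 to 1.38%) of the summed counts of both names in the Mg-deficient library and 1.26% (1.19 to 1.32%) in the Mg-sufficient library. Its log2 ratio minus that of miR3954 was 0.06, with an interval from -0.05 to 0.17 and p = 0.330 in Fisher's exact test on the reads. The counts of these names thus stood in nearly the same proportion in both libraries. Summed, they had a log2 ratio of -0.20, which was 0.14, 0.17 and 0.44 under the scales that raise that of miR3954 above 0. How a read that matches both names was counted is not stated.

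MiR3627, the relative of the calcium pump miRNA miR4376, was the one name of the 10 with a higher normalized read-count in the Mg-deficient library. It had 12241 counts (602 RPM; 592 to 613) there, against 7480 counts (337 RPM; 329 to 344) in the Mg-sufficient library. The 1.79-fold higher level is a log2 ratio of 0.84 (95% exact interval, 0.80 to 0.88), short of the threshold. This direction was the same under the 4 other library sizes tried, with log2 ratios from 0.58 to 1.47. Of the 324 names that passed, 68.2% had a lower log2 ratio. The name miR5211 shares the seed and the first 18 bases of miR3627, shown here for its different end:
miR5211: uCGCAGGGgagaugggaccgc

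Counted from the 5′ end of miR3627, the differences are U19C, A20G and A21C. MiR5211 had 141 counts (6.94 RPM) in the Mg-deficient library and 20 counts (0.900 RPM) in the Mg-sufficient library. Its share of the summed counts was 1.14% (0.97 to 1.34%) in the Mg-deficient and 0.27% (0.17 to 0.41%) in the Mg-sufficient library, so unlike miR7122 and miR3954 these names did not keep 1 proportion. Summed, their log2 ratio was 0.85.

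Other names assigned to the calcium pump superfamily, miR391, miR1432, miR4376 and miR5225, were all in the table, and 0 of the 4 passed the filter. MiR4376 had 27 counts in the Mg-deficient and 12 in the Mg-sufficient library, with a log2 ratio of 1.30 (0.27 to 2.41). For miR391 the counts were 106 and 101 in the same order, with a log2 ratio of 0.20 and an interval that includes 0. The intervals of miR1432 and miR5225, with 12 to 20 counts in a library, also include 0.

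MiR3951, the purine-rich 21-nt name, had 8139 counts (400 RPM; 392 to 409) in the Mg-deficient library, against 18102 counts (815 RPM; 803 to 827) in the Mg-sufficient library. The 2.03-fold lower level is a log2 ratio of -1.02 (-1.06 to -0.99), which was not called. The log2 ratio remained below 0 under the other library sizes, from -1.28 to -0.39. At a log2 threshold of 1, which 60.5% of the 324 names passed, miR3951 is called as well, and 3 of the 10 names are past it. At a linear ratio of 1.5, which 73.8% of the 324 names passed, 6 of the 10 are called, and miR3627 is the one of them that was higher. Of the names closest to miR3951 in sequence, miR8138 (17 nt, 3 mismatches) had 426 counts in the Mg-deficient and 682 in the Mg-sufficient library, and miR6180 (15 nt, 3 mismatches) had 30 and 8 in the same order. With both added, the log2 ratio of miR3951 was -1.0002.

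MiR3627 and miR3951 exchanged places between the libraries, a comparison that does not depend on the library size. There were 1.504 counts of miR3627 for each count of miR3951 in the Mg-deficient library and 0.413 in the Mg-sufficient library, a 3.64-fold difference (log2, 1.86; 95% interval, 1.81 to 1.92). For each 1000 counts of miR3954, the Mg-deficient library had 132 counts of miR3627 and the Mg-sufficient library 64.4, whereas for miR3951 the numbers were 87.8 and 156 in the same order. Against miR3954, miR3627 was therefore higher and miR3951 lower in the Mg-deficient library.

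MiR3950 and miR3952, 21 nt long, moved little. MiR3950 had 1917 counts (94.3 RPM) in the Mg-deficient and 2460 counts (111 RPM) in the Mg-sufficient library, with a log2 ratio of -0.23 (-0.32 to -0.14). Set against miR3954, its log2 ratio differed by -0.03, with an interval from -0.12 to 0.05. MiR3952 had 447 counts (21.99 RPM) in the Mg-deficient and 675 counts (30.4 RPM) in the Mg-sufficient library, with a log2 ratio of -0.47 (-0.64 to -0.29). Against miR3954 its difference was -0.27 (-0.44 to -0.10), so that it was lower than miR3954 beyond counting error. The sign of both log2 ratios turned when libraries were scaled by their known miRNA counts, to 0.40 for miR3950 and 0.17 for miR3952.

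MiR3953, whose annotated gene lies near that of miR3954, was scarce, with 81 counts (3.98 RPM; 3.21 to 4.95) in the Mg-deficient library and 76 counts (3.42 RPM; 2.73 to 4.28) in the Mg-sufficient library. The log2 ratio of 0.22 had an interval from -0.25 to 0.69, so no difference was detectable at this depth. For miR3949, the Mg-deficient library held 1 count and the Mg-sufficient library 0. Both are at or under 3 counts, the limit that a count of 0 allows, and no fold is given.

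MiR3946, the GA-repeat name of 24 nt, fell in the Mg-deficient library. It had 48 counts (2.36 RPM; 1.78 to 3.13) there, against 235 counts (10.6 RPM; 9.31 to 12.02) in the Mg-sufficient library, which is just above the filter. The 4.48-fold lower level is a log2 ratio of -2.16 (-2.64 to -1.71), and set against miR3954 its log2 ratio differed by -1.97 (-2.41 to -1.52). Assuming a biological coefficient of variation of 0.4, edgeR's exact test gave it a p-value of 0.0159, short of the 0.01 required. The listed sequences of other names also hold GA runs. MiR6281 overlaps miR3946 over 20 nt with 3 mismatches and had 185 counts in the Mg-deficient and 17 in the Mg-sufficient library, a log2 ratio of 3.57. MiR7539, which overlaps it over 17 nt with 3 mismatches, had 14 and 200 counts in the same order, a log2 ratio of -3.71. Names with GA runs thus went in opposite directions. Summed with the 4 names linked to it, directly or through each other, at 15 nt and 3 mismatches, miR3946 had a log2 ratio of 0.74. That sign rests on miR6261, with 484 counts in the Mg-deficient and 7 in the Mg-sufficient library, since without miR6261 the log2 ratio of the sum was -0.59. The remaining name, miR2936, had 65 and 62 counts in the same order.

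MiR3947, also listed with 24 nt, had 148 counts (7.28 RPM; 6.20 to 8.55) in the Mg-deficient library and 253 counts (11.4 RPM; 10.1 to 12.9) in the Mg-sufficient library. The log2 ratio was -0.65 (-0.95 to -0.35). Its sequence comes within 3 mismatches of no other listed name over 15 nt or more.

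MiR3948 and miR1171 were lower in the Mg-deficient library by a similar amount, and miR4351 had no count there. MiR3948 had 4651 counts (229 RPM; 222 to 235) in the Mg-deficient and 7760 counts (349 RPM; 342 to 357) in the Mg-sufficient library, a log2 ratio of -0.61 (-0.66 to -0.56). MiR1171, a name given in the green alga Chlamydomonas, had 3970 counts (195 RPM; 189 to 201) in the Mg-deficient and 6139 counts (276 RPM; 269 to 283) in the Mg-sufficient library, a log2 ratio of -0.50 (-0.56 to -0.44). MiR4351, a name given in soybean, had 0 counts in the Mg-deficient library, against 5736 counts (258 RPM; 252 to 265) in the Mg-sufficient library. With the known miRNA total as the scale, the log2 ratios of miR3948 and miR1171 turned to 0.025 and 0.13, so their direction depends on the scale. Against the 0.148 RPM that 3 counts make in the Mg-deficient library, miR4351 was at least 1749-fold lower. Such near absence from a library was common. At most 3 counts in a library were found for 71 of the 324 names that passed, and for 1 of the 10 described here, miR4351.

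The listed sequence of miR1171 matches that of miR3948 over 19 nt apart from G23A, counted from the 5′ end of miR1171. The sequence of miR4351 matches that of miR1171 over 18 nt apart from C13G, counted from the 5′ end of miR4351. Of the counts of these 3 names, miR4351 held 29.2% (28.6 to 29.9%) in the Mg-sufficient library, while in the Mg-deficient library it held 0 of 8621, which allows a share of up to 0.0348%. Between the other names the split was close to even in both libraries. MiR1171 had 46.1% (45.0 to 47.1%) of their summed counts in the Mg-deficient and 44.2% (43.3 to 45.0%) in the Mg-sufficient library, a small difference that is beyond counting error (p = 0.00585, Fisher's exact test on the reads). Summed over the 3 names, 8621 counts (424 RPM) stood against 19635 counts (884 RPM), a log2 ratio of -1.06 (-1.10 to -1.02), which is within the threshold. The sum was thus not called, although miR4351 by itself was. More distant names, linked within 3 mismatches over 15 nt, went in both directions. MiR1023, tied to miR4351, had 125 counts there against 434 in the Mg-sufficient library, miR5239, tied to miR1171, had 27 against 56, and miR5175, tied to miR3948, had 1 against 23. Names linked only through others were higher in the Mg-deficient library. MiR6426 had 3403 counts there against 188 in the Mg-sufficient library, miR5656 had 213 against 21, miR7711 had 40 against 9 and miR1439 had 34 against 0. The 7 distant names together had 3843 counts in the Mg-deficient and 731 in the Mg-sufficient library, a log2 ratio of 2.52. That ratio rests mostly on miR6426, which held 3403 of the 3843 and 188 of the 731 counts. All 10 linked names, miR6426 included, summed to -0.58.

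**Figure D3:**
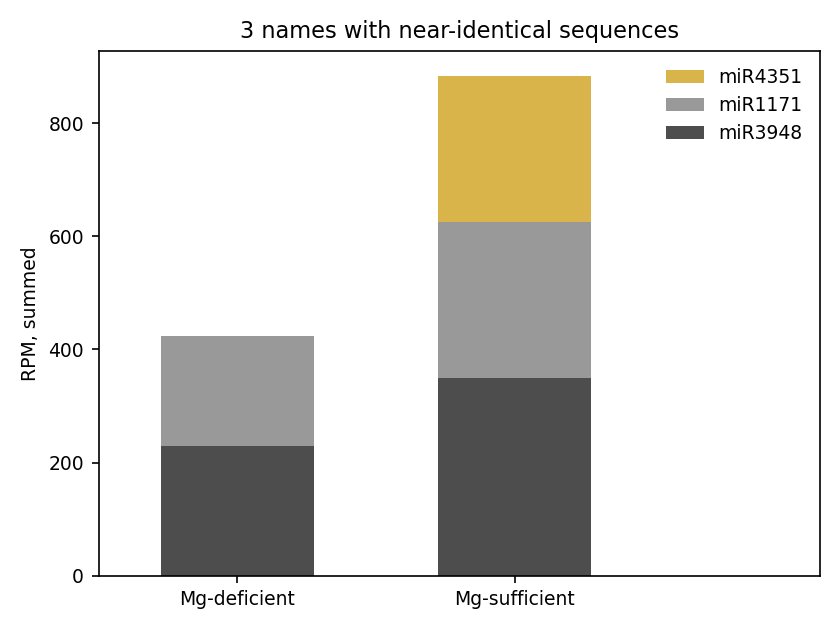
Normalized read-counts (RPM) of miR3948, miR1171 and miR4351, stacked, in the Mg-deficient library (left bar) and in the Mg-sufficient library (right bar), 1 library each. MiR4351 contributes 258 RPM to the 884 RPM of the Mg-sufficient library and nothing to the 424 RPM of the Mg-deficient library.

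By length, 5 names of 24 nt and 5 of 21 or 22 nt passed the filter. Of those of 24 nt, miR3946, miR3947 and miR4351 were bound to lie below 0 by the filter, which leaves miR3948 and miR1171, at -0.61 and -0.50. The 5 of 21 or 22 nt had at least 10 RPM in both libraries, and their log2 ratios ran from -1.02 to 0.84. Over all names that passed, the median log2 ratio was -0.54 for the 60 of 24 nt, -0.37 for the 116 of 21 nt and 0.07 for the 29 of 22 nt. These medians hold names that passed through 1 library alone, so that no pattern by length is read from them.

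Other woody-plant names were taken as poplar and grapevine series without miR3627. Of 29 such names, 18 were in the table and 4 passed the filter. Of these, 0 were called, against 53.7% of the 324 names, and all 4 had a log2 ratio below 0, against 59.0% of the 324. Their median was -0.62. All 4 had at least 10 RPM in both libraries, and of the 149 such names 12.8% were called and 69.1% were below 0. MiR1446, a poplar name, had 524 RPM in the Mg-deficient and 1172 RPM in the Mg-sufficient library (log2 ratio, -1.16). MiR1445 had 122 and 219 RPM in the same order (-0.84), and the grapevine name miR3633 had 108 and 141 RPM (-0.39). Of 12 names known in dicots as triggers of phased siRNAs, the role of miR3954, 11 were in the table, and 6 passed the filter. Of the 6, 2 were called, against 53.7% of the 324 names. All but miR1507 had at least 10 RPM in both libraries, where 12.8% of the 149 names were called. MiR1507 was called higher, with 12.5 RPM in the Mg-deficient and 3.15 RPM in the Mg-sufficient library. MiR2118 was called lower, with 449 and 1453 RPM in the same order. Both target disease resistance genes of the NBS-LRR class. MiR482, which does so too, had 209 and 160 RPM and a log2 ratio of 0.39. Trigger names thus went in both directions, with 3 of the 6 below 0. Among these 3 is miR7122, at -0.14, which differs from miR3954 by 1 base and may share its reads.

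**Figure D4:**
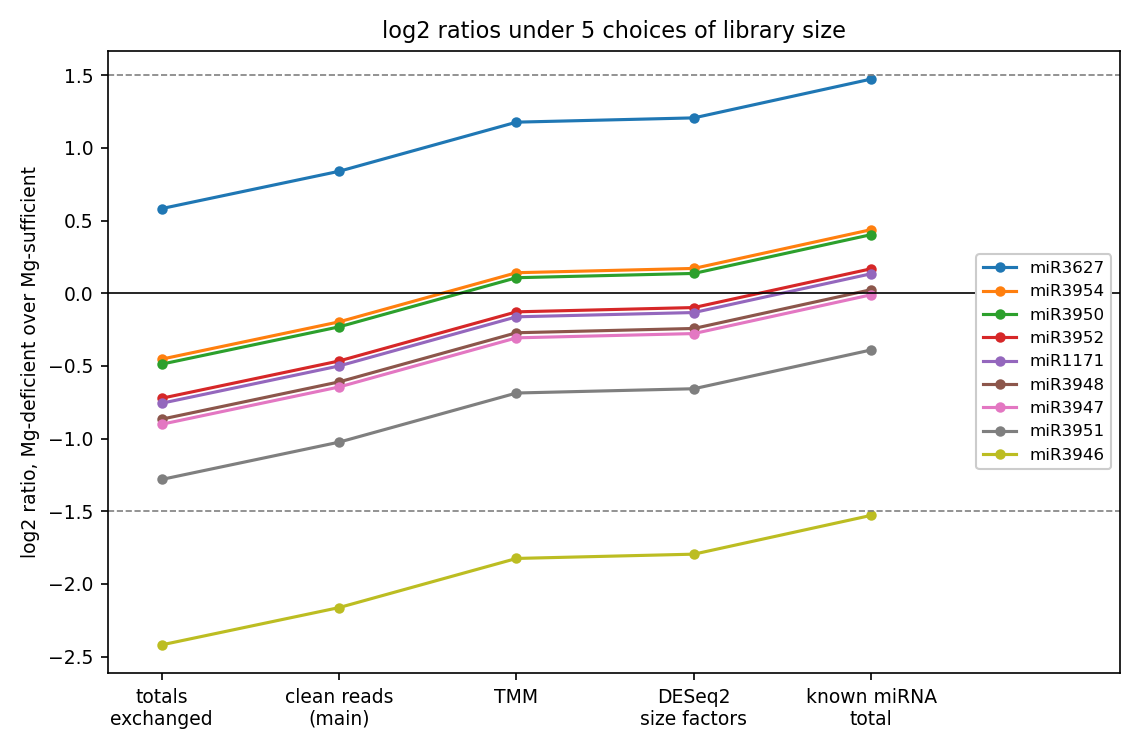
The log2 ratio (Mg-deficient over Mg-sufficient) of 9 names that passed the filter, all but miR4351, under 5 choices of library size, with the threshold of 1.5 dashed. Each choice moves the 9 names by the same amount, so the order of the names stays: miR3627 is above 0 and miR3951, miR3947 and miR3946 are below 0 in each, while miR3954, miR3950, miR3952, miR1171 and miR3948 cross 0 in at least 1.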

How the data were processed

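Small RNA was sequenced from 1 Mg-deficient and 1 Mg-sufficient leaf library. The authors cleaned the reads, mapped them to the C. sinensis genome (JGI), removed rRNA, tRNA, snRNA and snoRNA, aligned the rest to the plant entries of miRBase 21, allowing 2 mismatches, and deposited raw counts per name. The deposited RPM values are those counts per 1000000 clean reads, and recomputing them from the deposited totals gave the same values. The sequencing summary of the study gives these totals under the opposite treatments, and an exchange of the totals alone was tried as an alternative. The authors' deposited log2 ratios and p-values for 728 names were not used. How a read matching several names was counted is not stated.

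A count of 0 was set to 0.01 RPM for the log2 ratio. Changes against at most 3 counts are bounds against 3 counts. Intervals (95%) are Wilson for shares and RPM and exact Clopper-Pearson for log2 ratios, and those of differences of log2 ratios use the normal approximation for counts. They cover counting error only, and PCR copies are not independent molecules. Listed sequences were compared without gaps. Near-identical names share an overlap of 17 nt or more with no more than 2 mismatches, or are linked by another such name. The text names all 12 names of the rule, names within 3 mismatches over at least 15 nt that bear on a result, and names of the comparison lists that were called or above 100 RPM; others were named after their values were seen. The members and lists were chosen with earlier results of these data known. Calling was tested on simulated counts with counting error only and with planted changes beyond the threshold. The simulation does not bear on variation between plants. Python 3.11.15 with scipy 1.17.1, pandas 2.3.3, numpy 2.4.6 and matplotlib 3.10.9 was used, and edgeR 4.0.16 and DESeq2 1.42.0 (R 4.3.3) served for alternatives.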

Additional observations from a re-analysis of the deposited data

How the results depend on the processing

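Another library size moves the log2 ratio of every name with counts in both libraries by the same amount, which was 0.34 with TMM normalization, 0.37 with DESeq2's size factors, 0.63 with the known miRNA total and -0.26 with the clean-read totals exchanged. With TMM or DESeq2 the log2 ratio of miR3954 turned to 0.14 or 0.17, that of miR3950 to 0.11 or 0.14, and that of miR3954 and miR7122 summed to 0.14 or 0.17. With the known miRNA total, miR3954 and its sum with miR7122 were at 0.44, miR3950 at 0.40, miR3952 at 0.17, miR1171 at 0.13 and miR3948 at 0.025. With the totals exchanged, miR3953 was at -0.036. The median of the names described here that passed was -0.16, -0.13, 0.15 and -0.81 under TMM, DESeq2, the known total and the exchanged totals. Over all names that passed, the median was 0.13, 0.17, 0.45 and -0.61 in the same order.

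The 2 calls became 1 with each of the first 3 of these. MiR3946 was lost since its scaled level fell to 8.49 to 9.41 RPM, under the filter, while its log2 ratio stayed between -1.83 and -1.53. The number was also 1 with at least 50 RPM required, with the assumed biological coefficient of variation of 0.4 and with near-identical names summed, where miR4351 was the call lost. It was 0 with 10 RPM required in both libraries, and 6 (1 higher, 5 lower) at a linear ratio of 1.5, which 73.8% of the 324 names passed. Over all names, the 174 calls became 175 with TMM or with DESeq2, 179 with the known miRNA total and 159 with the assumed coefficient of variation. They became 534 without a filter, 19 with 10 RPM in both libraries and 72 with 50 RPM. The share of the 12 names in the known miRNA counts was 4.16% in the Mg-deficient and 3.25% in the Mg-sufficient library over the names that passed the filter, and 5.57% and 5.22% in the same order without miR157, the most abundant name.

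With 1 library per treatment, leaving out a library was not possible and biological variation was not estimated. No paired analysis was possible because each treatment has 1 library. Leaving out miR6261, chosen after seeing the data, turned the log2 ratio of miR3946 summed with its linked names to -0.59. Depth limits miR3953 and miR3949, which had at most 81 counts in a library.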
